A study of Mus musculus with 12 samples.

Results

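The genotype by carbon black interaction asks which genes respond differently to carbon nanoparticles when the microRNA gene Mir22 is missing. It is the response to carbon black in knockout cells minus the response in wild-type cells, computed on all 12 arrays of the study for 12380 features, of which 8063 were detected on every array. A feature is 1 gene symbol, or a single probe without a symbol, detected (detection p under 0.05) on at least 3 arrays of a table of 45281 probes. The arrays are Illumina bead arrays of mRNA from lung cells of mice, 3 per group. The groups were Mir22 knockout (Mir22-/-) mice exposed to nCB, which is nanoparticulate carbon black, Mir22 knockout mice given phosphate-buffered saline (PBS), wild-type mice exposed to nCB and wild-type mice given PBS. Every sample carries the strain label B6(Cg)-Tyrc-2J/ J and the age label 4 month, and exposure began at 2 months of age and lasted 1 month. The cells were CD11c+ lung cells taken on an AutoMACS magnetic separator, labelled APC. The labels give no details of the knockout allele and do not tie each array to its own animal, so the errors and p-values cover only the variation among these arrays, which may be technical.

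MicroRNAs are short RNAs that guide Argonaute proteins to messenger RNAs, mostly through pairing of the seed at their 5′ end, and lower the output of the paired transcript. A gene that miR-22 restrains directly can thus be higher without Mir22, and many further differences can be indirect. CD11c, encoded by Itgax, marks alveolar macrophages and dendritic cells of the lung, the cells that take up inhaled particles and present antigen. Histone deacetylase 4 (Hdac4) is a reported target of miR-22. Both mature strands of the deleted gene are shown because no probe for Mir22 or its host transcript is annotated on the array, so the deletion itself was not checked here. The sequences are from RefSeq on GRCm38.p6, 5′ to 3′, with the seed (bases 2 to 8) in capitals.
mmu-miR-22-3p, chr11:75463772-75463793, plus strand: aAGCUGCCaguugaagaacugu
mmu-miR-22-5p, chr11:75463734-75463755, plus strand: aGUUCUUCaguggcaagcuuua

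The arrays were of similar quality. Between 31.4% and 35% of probes were detected per array, and arrays of a group correlated at 0.985 to 0.992 across probes. Itgax was detected on every array, and so were the alveolar macrophage genes Car4, Pparg, Krt79, Chil3 and Marco. Among T and NK cell transcripts, Cd3d, Cd3e and Nkg7 were also detected on every array. Klrb1c was detected on 5 arrays, Cd28 on 2, and Cd4 and Il2rb on 1 each. Sftpc and Scgb1a1 of lung epithelium and Hba-a1 of erythrocytes were detected on every array too, while Krt18 and Slc4a1 were detected on 2. Siglecf, another alveolar macrophage marker, was detected on 3 arrays. In such bulk samples, fewer cells of a type and less RNA per cell cannot be told apart.

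The interaction passed for few genes, more of them negative than positive. Of the 12380 features tested, 16 (0.129%) passed an adjusted p of 0.05 in the limma model, 5 with a positive interaction (0.0404%) and 11 with a negative one (0.0889%). Among the 8063 features detected on every array, 9 passed (0.112%), 4 positive (0.0496%) and 5 negative (0.062%), with p-values adjusted over all features. Adjusted over the 8063 alone there were 8, without Ndrg1 (adjusted p = 0.0609). Without adjustment, 1228 features had a p under 0.05 (9.92%), 704 of them positive (5.69%) and 524 negative (4.23%). For comparison, carbon black itself changed 1978 features in knockout cells (16%) and 2240 in wild-type cells (18.1%). The fitted response was smaller in knockout cells in 7 of the 16 called features (36.4% of all features) and larger in 2 (31.8%). In the other 7 the fitted responses had opposite signs (31.8% of all features). Both responses passed in 2 of those 7, Gpr171 and Klk1b11; the knockout value of Ear6 came from arrays that did not detect it. The split by direction depended on the scaling: when arrays were scaled to a common median, 12 features passed, 0 positive and 12 negative.

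The number of calls also depended on single arrays. It was 34 without knockout nCB 3, and 9 without knockout nCB 1. Leaving out knockout PBS 1, 2 or 3 gave 8, 8 and 6 calls, and there were 8 calls, all among the 16, without wild-type nCB 1, wild-type PBS 1 or wild-type PBS 2. Among features detected on every array, the 9 calls became 3 without knockout nCB 1, 4 without knockout nCB 2, 17 without knockout nCB 3 and 14 without wild-type nCB 2. They became 3, 3 and 2 without knockout PBS 1, 2 and 3, and 3 each without wild-type nCB 1, wild-type PBS 1 or wild-type PBS 2. The calls of Ear6, Rnase2b, Arg1, Cxcl9, Gpr176 and 1 unnamed probe held in all 12 models that left out an array.

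**Figure D1:**
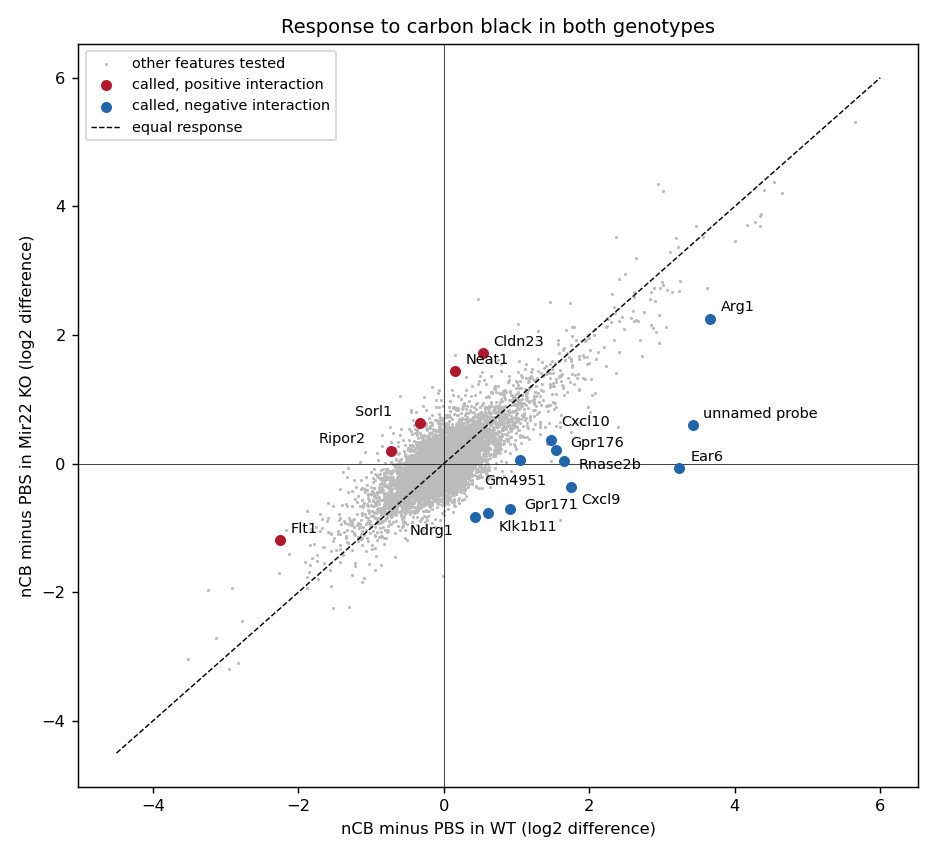
Response to carbon black (nCB minus PBS, log2 difference of group means) of all 12380 features, with Mir22 knockout on the vertical axis, wild type on the horizontal axis and the line of equal response dashed. The 11 features called with a negative interaction (blue) lie below the line and the 5 called with a positive one (red) above it, and the middle of the distribution lies close to it (quartiles of the interaction −0.15 and 0.19).

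Cxcl9, a chemokine induced by interferon gamma that draws T cells through the receptor CXCR3, had the largest difference in response among the named genes detected on every array. Its log2 intensity was 5.97, 5.94 and 6.61 in knockout nCB samples and 6.80, 6.48 and 6.34 in knockout PBS samples, against 7.88, 7.25 and 7.82 in wild-type nCB samples and 5.82, 5.94 and 5.95 in wild-type PBS samples. All 3 wild-type nCB samples lay above all 9 others, and the knockout exposure groups overlapped. The response was −0.37 log2 units in knockout cells (adjusted p = 0.236) and 1.75 in wild-type cells (adjusted p = 1.05e-05). The interaction was −2.11 ± 0.28 (SE, limma adjusted p = 0.00381).

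Gpr171, a G protein-coupled receptor that binds the neuropeptide BigLEN, moved in opposite directions. Log2 intensities were 7.45, 7.25 and 7.84 in knockout nCB samples and 7.86, 8.40 and 8.39 in knockout PBS samples, against 8.37, 8.09 and 8.37 in wild-type nCB samples and 7.15, 7.34 and 7.63 in wild-type PBS samples. The exposure groups of each genotype did not overlap. Gpr171 fell by 0.71 in knockout cells (adjusted p = 0.0146) and rose by 0.90 in wild-type cells (adjusted p = 0.00236). The interaction was −1.61 ± 0.26 (limma adjusted p = 0.0225), and it passed in 4 of the 12 models that left out an array: those without knockout nCB 3 (adjusted p = 0.00934), knockout PBS 1 (0.0101), wild-type nCB 2 (0.0217) or wild-type PBS 3 (0.0283). In the other 8 the adjusted p was 0.0541 to 0.0933.

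Klk1b11 and Ndrg1 also fell with carbon black in knockout cells. Klk1b11 belongs to the glandular kallikreins, a cluster of closely similar serine proteases. Its log2 intensity was 6.15, 6.52 and 6.18 in knockout nCB samples and 7.06, 6.94 and 7.13 in knockout PBS samples, against 5.47, 5.92 and 5.55 in wild-type nCB samples and 4.78, 5.22 and 5.11 in wild-type PBS samples. All 6 knockout samples lay above all 6 wild-type samples, so the genotypes differed under both exposures. The responses were −0.76 in knockout cells (adjusted p = 0.00268) and 0.61 in wild-type cells (adjusted p = 0.0107), with an interaction of −1.37 ± 0.22 (limma adjusted p = 0.0211). The call was lost without knockout nCB 1 (adjusted p = 0.0637), knockout PBS 1 (0.0562), knockout PBS 3 (0.0898) or wild-type PBS 1 (0.0651). Near-identical family members can share a probe: a second Klk1b11 probe had an interaction of −0.47 (unadjusted p = 0.0442), and Klk1b27 had −0.74 and Klk1b26 0.05, neither past the test.

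Ndrg1, a cytoplasmic protein induced by hypoxia and cell stress, had log2 intensities of 5.51, 5.80 and 5.48 in knockout nCB samples and 6.37, 6.64 and 6.26 in knockout PBS samples. In wild-type cells they were 5.97, 5.71 and 5.68 with nCB and 5.71, 5.21 and 5.17 with PBS. Knockout PBS samples were the highest of all 12, and the other 3 groups shared a range. Ndrg1 fell by 0.83 in knockout cells (adjusted p = 0.00199), while the wild-type response was 0.43 (adjusted p = 0.0816). The interaction was −1.25 ± 0.23 (limma adjusted p = 0.0459), and a second probe gave −1.07 (unadjusted p = 0.00125). The call held without wild-type PBS 1 (adjusted p = 0.016) and was lost without each of the other 11 arrays in turn (adjusted p 0.0507 to 0.141).

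The probe with the second-largest interaction, ILMN_2635272, has no gene symbol in the annotation used. Its log2 intensity was 9.86, 10.37 and 10.70 in knockout nCB samples and 9.44, 9.92 and 9.77 in knockout PBS samples, against 10.50, 9.94 and 9.57 in wild-type nCB samples and 6.64, 6.63 and 6.48 in wild-type PBS samples. Only the wild-type PBS samples stood apart, below all 9 others. The interaction was −2.82 ± 0.32 (limma adjusted p = 0.00105), with responses of 0.60 in knockout cells and 3.42 in wild-type cells.

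Neat1, the long noncoding RNA that scaffolds nuclear paraspeckles, rose with carbon black in knockout cells. It had log2 intensities of 9.77, 10.20 and 9.50 in knockout nCB samples and 8.40, 8.42 and 8.34 in knockout PBS samples, against 8.49, 8.62 and 8.67 in wild-type nCB samples and 8.51, 8.32 and 8.49 in wild-type PBS samples. Knockout nCB samples lay above all 9 others, and the wild-type exposure groups overlapped. The rise was 2.71-fold in knockout cells (log2 1.44, adjusted p = 6.21e-06), against a log2 response of 0.15 in wild-type cells (adjusted p = 0.560). The interaction was 1.28 ± 0.21 (limma adjusted p = 0.0252). It passed without knockout nCB 2 (0.0237), knockout nCB 3 (0.00531), wild-type nCB 2 (0.0363) or wild-type nCB 3 (0.0475), and had an adjusted p of 0.0526 to 0.0933 without each of the other 8 arrays.

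Flt1, the receptor VEGFR1 for vascular endothelial growth factor A and placental growth factor, fell in both genotypes and fell less without Mir22. Its log2 intensity was 8.98, 9.22 and 8.75 in knockout nCB samples and 10.31, 10.03 and 10.18 in knockout PBS samples, against 7.85, 8.05 and 7.89 in wild-type nCB samples and 10.21, 10.24 and 10.09 in wild-type PBS samples. The PBS groups of the 2 genotypes overlapped, and the nCB groups did not. Flt1 fell by 1.19 in knockout cells (adjusted p = 1.22e-05) and fell by 2.25 in wild-type cells (adjusted p = 8.71e-09). The interaction was 1.06 ± 0.19 (limma adjusted p = 0.0396), which passed without knockout nCB 3 (0.0117) or wild-type nCB 2 (0.0356) and had an adjusted p of 0.0562 to 0.131 without each of the other 10 arrays. Markers of endothelium and fibroblasts had 0 calls and were positive in 8 of 10 measured (median 0.17). Among them Ramp2 had an interaction of 0.48, Vwf 0.46 and Tek 0.40, and Pecam1 had 0.08; their part in the difference of Flt1 was not tested.

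Sorl1, a sorting receptor of endosomes, had log2 intensities of 5.68, 5.80 and 5.66 in knockout nCB samples and 5.22, 5.13 and 4.89 in knockout PBS samples. In wild-type cells they were 5.30, 5.21 and 5.39 with nCB and 5.69, 5.70 and 5.48 with PBS. The order of the exposure groups was thus reversed between genotypes, with no overlap in either. Sorl1 rose by 0.63 in knockout cells (adjusted p = 0.00158), and the wild-type response was −0.32 (adjusted p = 0.0752). The interaction was 0.96 ± 0.17 (limma adjusted p = 0.0396); it passed without knockout nCB 3 (0.0385) or wild-type PBS 3 (0.0496) and had an adjusted p of 0.0541 to 0.131 without each of the other 10.

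Ripor2, an inhibitor of the small GTPase RhoA, fell in wild-type cells. It had log2 intensities of 5.74, 5.68 and 5.49 in knockout nCB samples and 5.32, 5.55 and 5.44 in knockout PBS samples, against 5.06, 5.15 and 5.10 in wild-type nCB samples and 5.97, 5.76 and 5.75 in wild-type PBS samples. The fall was a log2 response of −0.72 in wild-type cells (adjusted p = 0.000302), where the exposure groups did not overlap, while the knockout response was 0.20 (adjusted p = 0.267) with overlapping groups. The interaction was 0.93 ± 0.16 (limma adjusted p = 0.0396). The 4 other detected Ripor2 probes disagreed, with interactions of −0.03, 0.59, 0.05 and 0.23, so a difference of the whole transcript is not shown. The call held without knockout nCB 3 (0.0216) and was lost without each of the other 11 arrays (0.0510 to 0.131).

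**Figure D2:**
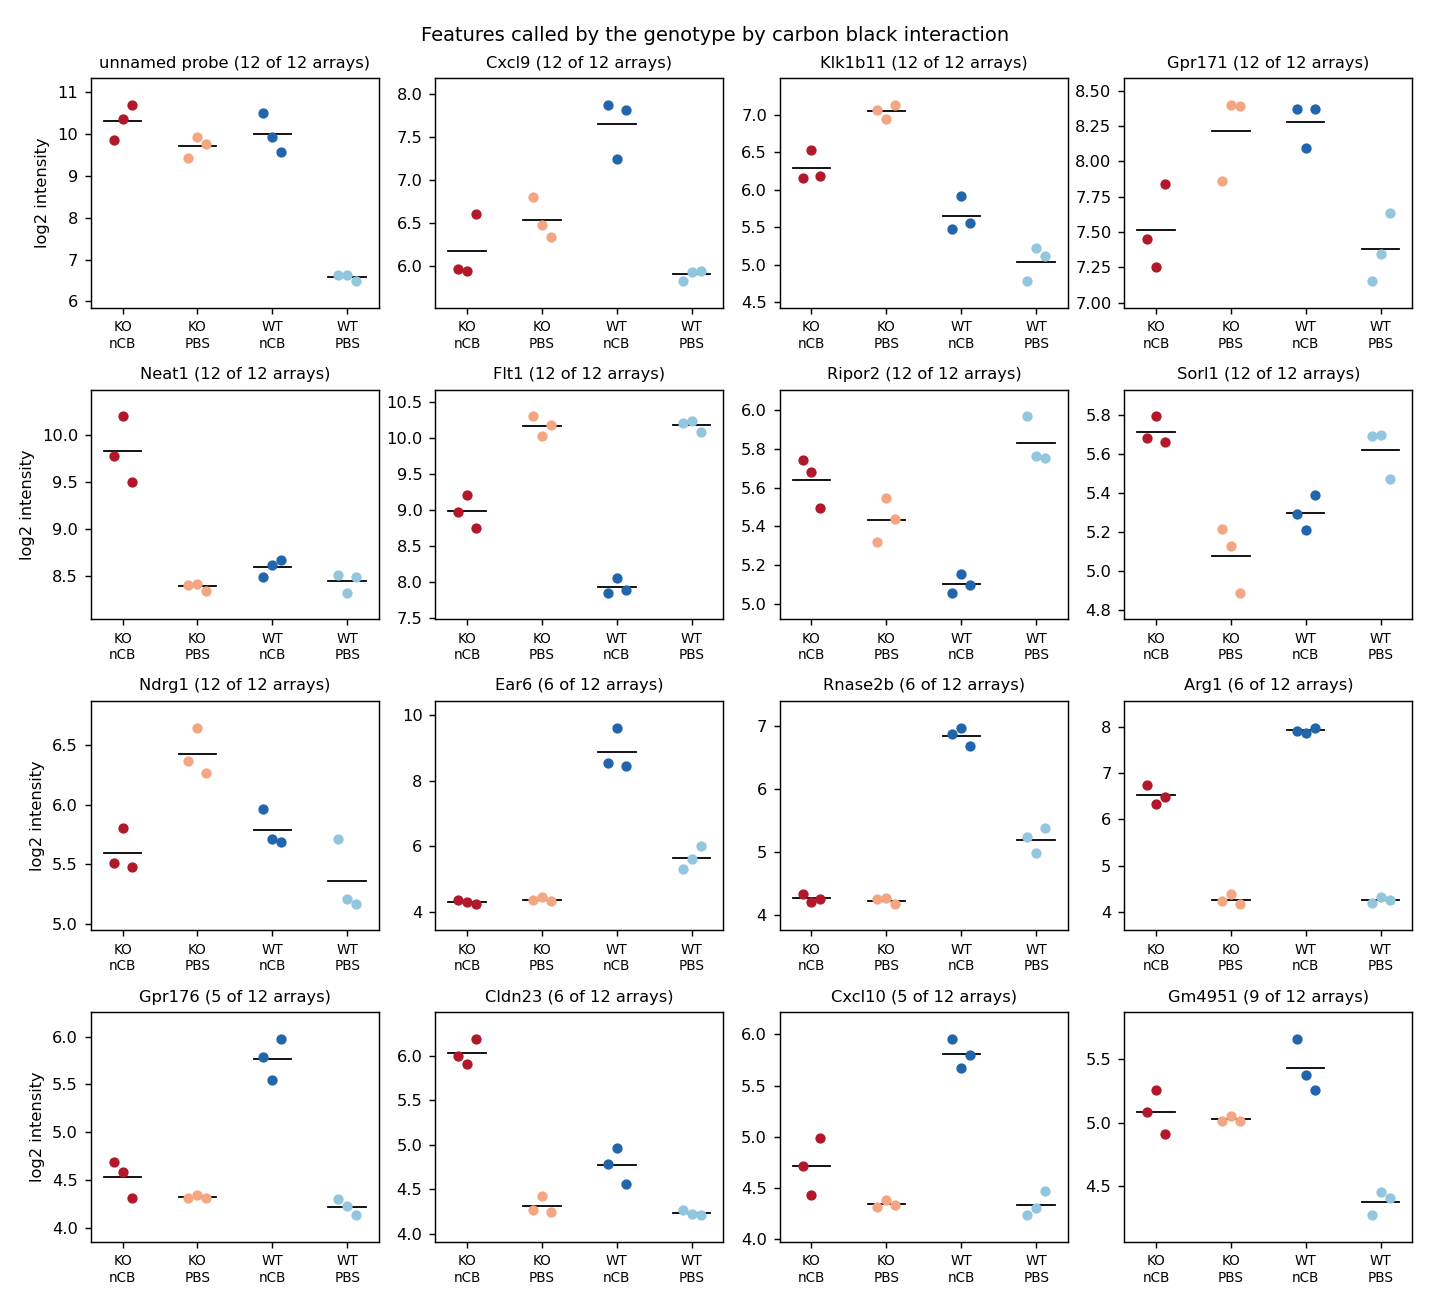
Log2 intensity of each of the 16 called features on every array (dots) with the group mean (line), for Mir22 knockout nCB, knockout PBS, wild-type nCB and wild-type PBS from left to right; panel titles give the number of arrays on which the feature was detected. Cxcl9 is high in wild-type nCB samples, Neat1 in knockout nCB samples, and Ear6 and Rnase2b lie at the floor of the scale on all 6 knockout arrays.

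Among features detected on 3 to 11 arrays, 7 of 4317 passed, and the leading pair were Ear6 and Rnase2b. Both encode eosinophil-associated ribonucleases of the RNase A superfamily, a rodent gene family that has multiplied on chromosome 14. Neither was detected on any of the 6 knockout arrays, under either exposure. Ear6 had log2 intensities of 4.36, 4.30 and 4.24 in knockout nCB samples and 4.34, 4.45 and 4.31 in knockout PBS samples, against 8.53, 9.63 and 8.47 in wild-type nCB samples and 5.30, 5.62 and 5.99 in wild-type PBS samples. Rnase2b had 4.32, 4.20 and 4.25 in knockout nCB samples and 4.24, 4.26 and 4.17 in knockout PBS samples, against 6.88, 6.97 and 6.69 in wild-type nCB samples and 5.23, 4.97 and 5.37 in wild-type PBS samples. Wild-type cells thus carried both transcripts at rest and more of them after carbon black.

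Bounds replace fold changes where a group was not detected, with an undetected array given the lowest log2 value that any detected probe had on it (4.51 to 4.60). Ear6 was at least 20.1-fold lower in knockout than in wild-type cells under nCB and at least 2.11-fold lower under PBS. For Rnase2b the bounds were 4.91-fold under nCB and 1.55-fold under PBS. The wild-type responses were 3.24 and 1.65 log2 units (adjusted p = 1.65e-07 and 1.39e-07). The interaction was −3.31 ± 0.34 for Ear6 and −1.62 ± 0.17 for Rnase2b (limma adjusted p = 0.000781 for both). It was −3.25 and −1.66 with undetected groups at their bound. Both knockout groups were undetected, so the knockout response was not measured and these values restate the wild-type response.

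Other members of the family had small interactions or did not pass. Rnase2a rose in both genotypes, by 1.98 in knockout cells and 1.77 in wild-type cells, and Ear10 changed by −1.37 and −1.55, with interactions of 0.22 and 0.19 that did not pass. Rnase6 had an interaction of 0.88 (adjusted p = 0.210). Genotype differences called under both exposures were unevenly placed in the genome. Leaving out features with a called interaction, they made up 11 of 332 features on chromosome 14 (3.31%) and 20 of 761 on chromosome 2 (2.63%), where Gpr176 lies, against 25 of 8692 on the other chromosomes (0.288%). The part that these chromosomes play in the differences of Ear6, Rnase2b and Gpr176 was not tested. Their RefSeq promoters (250 bases before to 50 after the start, GRCm38.p6) are shown because the pair moved together in wild-type cells; the longest run of identical bases that they share is 37. Relatives this alike could share a probe, and cross-hybridisation was not tested.
Ear6 promoter, chr14:51853518-51853817, plus strand: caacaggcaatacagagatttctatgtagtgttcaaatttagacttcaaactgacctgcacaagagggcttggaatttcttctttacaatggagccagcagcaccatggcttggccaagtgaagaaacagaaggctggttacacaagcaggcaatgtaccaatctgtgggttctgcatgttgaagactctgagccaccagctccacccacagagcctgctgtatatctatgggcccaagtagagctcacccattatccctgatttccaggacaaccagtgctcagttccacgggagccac
Rnase2b promoter, chr14:51162010-51162309, plus strand: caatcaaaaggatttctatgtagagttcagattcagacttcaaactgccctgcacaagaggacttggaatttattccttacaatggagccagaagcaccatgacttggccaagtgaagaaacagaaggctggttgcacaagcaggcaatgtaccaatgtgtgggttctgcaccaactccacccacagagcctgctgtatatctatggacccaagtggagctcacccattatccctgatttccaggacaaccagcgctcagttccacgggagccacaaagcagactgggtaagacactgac

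Arg1, the arginase that turns arginine into ornithine and marks alternatively activated macrophages, rose in both genotypes and reached a lower level in knockout cells. Log2 intensities were 6.75, 6.33 and 6.48 in knockout nCB samples, against 7.92, 7.87 and 7.98 in wild-type nCB samples. In PBS samples Arg1 was undetected in both genotypes, at 4.23, 4.39 and 4.18 in knockout and 4.20, 4.34 and 4.25 in wild type. It was at least 3.90-fold higher with carbon black in knockout cells and at least 10.5-fold higher in wild-type cells. These are lower bounds from undetected PBS groups and do not rank the rises. The interaction was −1.41 ± 0.17 (limma adjusted p = 0.0021), and a second probe gave −1.22 (unadjusted p = 7.03e-05). Other genes of alternative activation were not called: of 12 measured, 1 passed, and the median interaction was 0.01, against 0.02 over all features. Of the 12, 6 were positive and 6 negative, from Chil3 (0.53) and Mrc1 (0.41) to Ccl17 (−0.16) and Arg1.

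Cxcl10 and Gm4951 are interferon-stimulated, and Gpr176 encodes an orphan G protein-coupled receptor known from the circadian clock of the brain. Cxcl10 had log2 intensities of 4.72, 4.43 and 4.99 in knockout nCB samples and 5.95, 5.67 and 5.80 in wild-type nCB samples, and it was undetected in all 6 PBS samples. It was at least 1.11-fold higher with carbon black in knockout cells, where 2 of 3 arrays detected it. In wild-type cells it was at least 2.41-fold higher, and these lower bounds do not rank the rises. The interaction was −1.11 ± 0.19 (limma adjusted p = 0.0396). This call held without knockout nCB 3 (0.0105) or wild-type nCB 2 (0.0356) and was lost without each of the other 10 arrays (0.0691 to 0.131).

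Gpr176 lay at 4.69, 4.59 and 4.31 in knockout nCB samples, against 5.78, 5.54 and 5.98 in wild-type nCB samples. In knockout nCB samples 2 of 3 arrays detected it. It was undetected in PBS samples of both genotypes, at 4.31, 4.35 and 4.32 in knockout and 4.31, 4.24 and 4.14 in wild type. Wild-type cells thus had at least 2.34-fold more with carbon black, and the interaction was −1.33 ± 0.19 (limma adjusted p = 0.00704). Gm4951, of the interferon-inducible GTPase family, had 5.09, 5.25 and 4.91 in knockout nCB samples and 5.01, 5.05 and 5.02 in knockout PBS samples, against 5.66, 5.38 and 5.26 in wild-type nCB samples and 4.27, 4.46 and 4.41 in wild-type PBS samples, where it was undetected. Knockout samples thus stayed within a narrow range under both exposures. The interaction was −1.0 ± 0.18 (limma adjusted p = 0.0459), or −0.84 with the undetected group at its bound. It passed without knockout nCB 2 (0.0495) or wild-type nCB 3 (0.0448), and had an adjusted p of 0.0589 to 0.136 without each of the other 10.

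Cldn23, a claudin of tight junctions, was the only feature of this group with a larger fitted response in knockout cells. It had log2 intensities of 6.00, 5.90 and 6.19 in knockout nCB samples and 4.78, 4.96 and 4.56 in wild-type nCB samples, with no overlap. It was undetected in PBS samples, at 4.26, 4.43 and 4.25 in knockout and 4.27, 4.22 and 4.21 in wild type. The rise was at least 2.78-fold in knockout cells and at least 1.17-fold in wild-type cells, lower bounds that do not rank the rises. The interaction was 1.19 ± 0.18 (limma adjusted p = 0.0118), lost without knockout PBS 3 (0.0566), with median scaling (0.161) and with the authors' processed values (0.188). Both PBS groups were undetected for Cldn23, Arg1, Gpr176 and Cxcl10. Their interactions thus rest on the genotype difference under nCB, which was 1.26, −1.40, −1.23 and −1.10 log2 units. For calls near the detection limit the size depends on the background correction. With the authors' values and without background correction the interaction was 2.24 and 0.39 for Cldn23, −3.52 and −0.45 for Gpr176, −3.49 and −0.29 for Gm4951 and −2.56 and −0.36 for Cxcl10.

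Interferon-stimulated genes mostly had negative interactions. Of 27 measured, 24 had a negative interaction, with a median of −0.31, against 0.02 over all 12380 features, of which 47.0% were negative. Only Cxcl10 passed the test; at an unadjusted p under 0.05, 9 of 27 were negative (33.3%) and 0 positive, against 4.23% and 5.69% of all features. Carbon black raised 8 of the 27 in knockout cells and 18 in wild-type cells, against 8.69% and 8.88% of all features. A call in one genotype alone does not show a difference, which only the interaction tests. The negative median held in all 21 alternatives, from −0.44 to −0.17.

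Values of single interferon genes show the size of the difference. Ifit2, an interferon-induced protein that binds RNA, had log2 intensities of 4.86, 5.01 and 4.80 in knockout nCB samples and 4.90, 4.48 and 4.38 in knockout PBS samples, against 6.07, 5.77 and 6.34 in wild-type nCB samples and 4.70, 4.57 and 4.64 in wild-type PBS samples. Wild-type nCB samples stood above all others. The interaction was −1.12 ± 0.22 and did not pass (limma adjusted p = 0.0743), and a second probe gave −0.89.

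Irf9, the DNA-binding subunit of the factor ISGF3 that carries the type I interferon signal, had 6.83, 6.70 and 6.67 in knockout nCB samples and 6.82, 6.98 and 6.71 in knockout PBS samples, against 7.59, 7.25 and 7.38 in wild-type nCB samples and 6.77, 6.87 and 6.73 in wild-type PBS samples. Again only wild-type nCB samples stood apart (interaction −0.72 ± 0.17, adjusted p = 0.152). Irf9 also lies on chromosome 14. Ifi205, of the DNA-sensing Ifi200 family, had responses of 0.81 in knockout cells and 2.01 in wild-type cells (interaction −1.20, adjusted p = 0.174). Bst2, the virus-tethering protein, had 0.57 and 1.32 (interaction −0.75, adjusted p = 0.464). Exceptions were Irf7, the master regulator of type I interferon production, with 0.53 in both genotypes, and Irf8 and the RNA sensor Ifih1, whose interactions were 0.23 and 0.35.

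**Figure D3:**
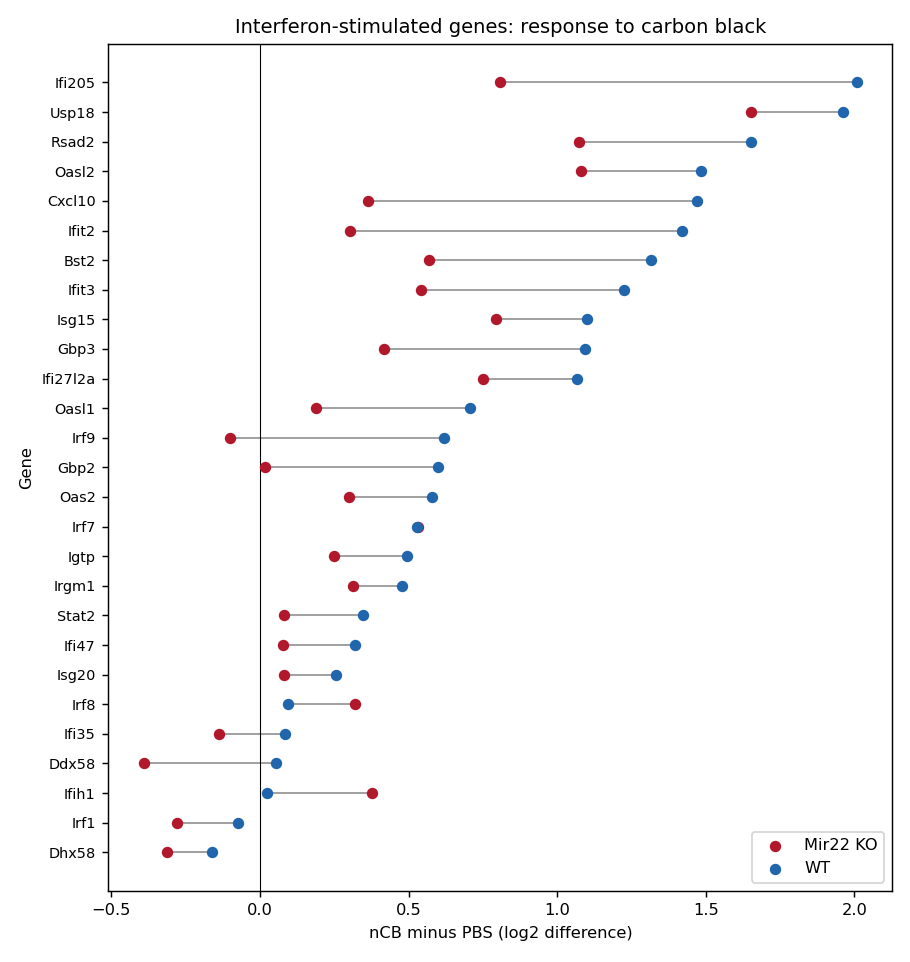
Response to carbon black (nCB minus PBS, log2 difference) of the 27 measured interferon-stimulated genes in Mir22 knockout (red) and wild-type cells (blue), ordered by the wild-type response. The knockout dot lies left of the wild-type dot for 24 genes, with the widest gaps at Ifi205, Ifit2 and Cxcl10.

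The promoters of Cxcl10 and Cxcl9, neighbours on chromosome 5, are shown because both chemokines were called and both are known to answer interferon. An interferon-stimulated response element, searched on both strands as GAAA and GAAA with any pair of bases between them, was found in the Cxcl10 window at position −213 from the start (capitals), and none was found in the Cxcl9 window. This motif is present in 3.44% of 32851 RefSeq promoters of the same length. The gamma-activated site, searched on both strands as TTC and GAA with any 3 bases between them, was in neither window; it is present in 8.30% of promoters. A match is a string of letters and not a measured binding site. The 2 windows share no run of identical bases longer than 11.
Cxcl10 promoter, chr5:92348840-92349139, minus strand: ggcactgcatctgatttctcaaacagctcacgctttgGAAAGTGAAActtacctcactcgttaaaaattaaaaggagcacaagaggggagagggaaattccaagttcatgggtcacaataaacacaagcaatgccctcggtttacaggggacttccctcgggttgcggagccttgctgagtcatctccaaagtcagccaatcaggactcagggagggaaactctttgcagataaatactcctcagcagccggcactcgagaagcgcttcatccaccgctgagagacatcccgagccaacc
Cxcl9 promoter, chr5:92328030-92328329, minus strand: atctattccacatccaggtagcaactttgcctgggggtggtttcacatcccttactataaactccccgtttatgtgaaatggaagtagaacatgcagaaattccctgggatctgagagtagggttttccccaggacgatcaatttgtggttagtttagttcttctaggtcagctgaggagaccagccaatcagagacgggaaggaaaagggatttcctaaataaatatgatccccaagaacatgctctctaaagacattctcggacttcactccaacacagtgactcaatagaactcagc

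Of 11 measured chemokines that attract monocytes, 8 rose and 1 fell in knockout cells, against 9 and 1 in wild-type cells. Over all 12380 features, 1076 rose and 902 fell in knockout cells, against 1099 and 1141 in wild-type cells. The interaction of the 11 chemokines was negative in 9 and passed in 0, with a median of −0.39. At an unadjusted p under 0.05, 4 were negative (36.4%, against 4.23% of all features). Ccl12, a ligand of the receptor CCR2, was undetected in PBS samples and had log2 intensities of 7.21, 6.57 and 7.52 in knockout nCB samples, against 8.12, 7.59 and 8.05 in wild-type nCB samples. It was at least 5.83-fold higher with carbon black in knockout cells and at least 10.4-fold in wild-type cells. These are lower bounds and do not rank the rises. The interaction of Ccl12 was −0.90 ± 0.28 (limma adjusted p = 0.274), and a second probe gave −1.20. Ccl8 was undetected in both knockout groups and in wild-type PBS samples, and was at least 1.53-fold higher with carbon black in wild-type cells (interaction −0.82, adjusted p = 0.194). Ccl9 rose by 2.69 in knockout cells and 3.24 in wild-type cells, and Ccl3 by 2.15 and 2.85.

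Neutrophil chemoattractants had a negative interaction in 4 of 5 measured (median −0.46) and 0 calls, with Ppbp at 0.32. Cxcl2, a ligand of CXCR2, had log2 intensities of 5.99, 5.73 and 4.90 in knockout nCB samples and 7.58, 7.37 and 6.90 in knockout PBS samples, against 5.54, 5.62 and 6.37 in wild-type nCB samples and 5.16, 6.52 and 5.89 in wild-type PBS samples. It fell by 1.74 in knockout cells (adjusted p = 0.00172) with a wild-type response of −0.02 (adjusted p = 0.983). The interaction of −1.73 ± 0.47 did not pass (adjusted p = 0.216), and a second probe gave −1.33. Cxcl1 had −0.99 (adjusted p = 0.280). Granule genes were positive in 10 of 10 measured, median 0.39, with 0 calls and 3 at an unadjusted p under 0.05 (30%, against 5.69% of all features): the alarmin S100a9 had 1.26 (adjusted p = 0.339) and Chil3, a chitinase-like protein that alveolar macrophages also make, 0.53.

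Markers of alveolar macrophages mostly had positive interactions, with a median response of −0.33 in knockout cells and −0.74 in wild-type cells. Of 13 measured, 10 were positive and 3 negative, 6 had an unadjusted p under 0.05, all positive (46.2%, against 5.69% of all features), and 0 passed after adjustment. The median was 0.51, and 0.37 to 0.63 over the alternatives. Krt79, a keratin of alveolar macrophages, had log2 intensities of 9.54, 9.84 and 9.44 in knockout nCB samples and 11.29, 11.69 and 11.62 in knockout PBS samples, against 7.96, 8.66 and 8.17 in wild-type nCB samples and 11.18, 11.21 and 11.16 in wild-type PBS samples. All knockout nCB values lay above all wild-type nCB values, and the interaction was 0.99 ± 0.24 (limma adjusted p = 0.171). Marco, a scavenger receptor for inhaled particles, had 1.04 ± 0.35 (adjusted p = 0.308) and Il18 0.65 ± 0.18 (adjusted p = 0.216). A second Il18 probe, also detected on every array, gave the opposite value of −0.68 (unadjusted p = 0.0349).

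Mean levels of the following cell markers shifted with carbon black in both genotypes. The interaction of the mean was 0.43 for alveolar macrophage markers. It was −0.08 for markers of monocytes and interstitial macrophages and 0.04 for T and NK cell markers. The mean log2 level of the 13 alveolar macrophage markers was 9.03 to 9.21 in knockout nCB samples and 9.56 to 9.63 in knockout PBS samples, against 8.50 to 8.91 in wild-type nCB samples and 9.57 to 9.64 in wild-type PBS samples. The 15 markers of monocytes and interstitial macrophages averaged 7.13 to 7.27 in knockout nCB samples and 5.71 to 5.94 in knockout PBS samples, against 7.5 to 7.74 in wild-type nCB samples and 6.08 to 6.12 in wild-type PBS samples. Their interaction had a median of −0.05. T and NK cell markers (8 measured) averaged 6.85 to 7.29 in knockout nCB samples and 6.35 to 6.81 in knockout PBS samples, against 6.86 to 7.37 in wild-type nCB samples and 6.38 to 6.84 in wild-type PBS samples. Conventional dendritic cell markers (14 measured) averaged 6.47 to 6.92 in knockout nCB samples and 5.84 to 6.02 in knockout PBS samples. In wild-type cells they averaged 6.83 to 6.91 with nCB and 6.20 to 6.32 with PBS. The interaction of their mean was 0.08. The part of these cell markers in the interferon, chemokine and Arg1 differences was not tested.

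**Figure D4:**
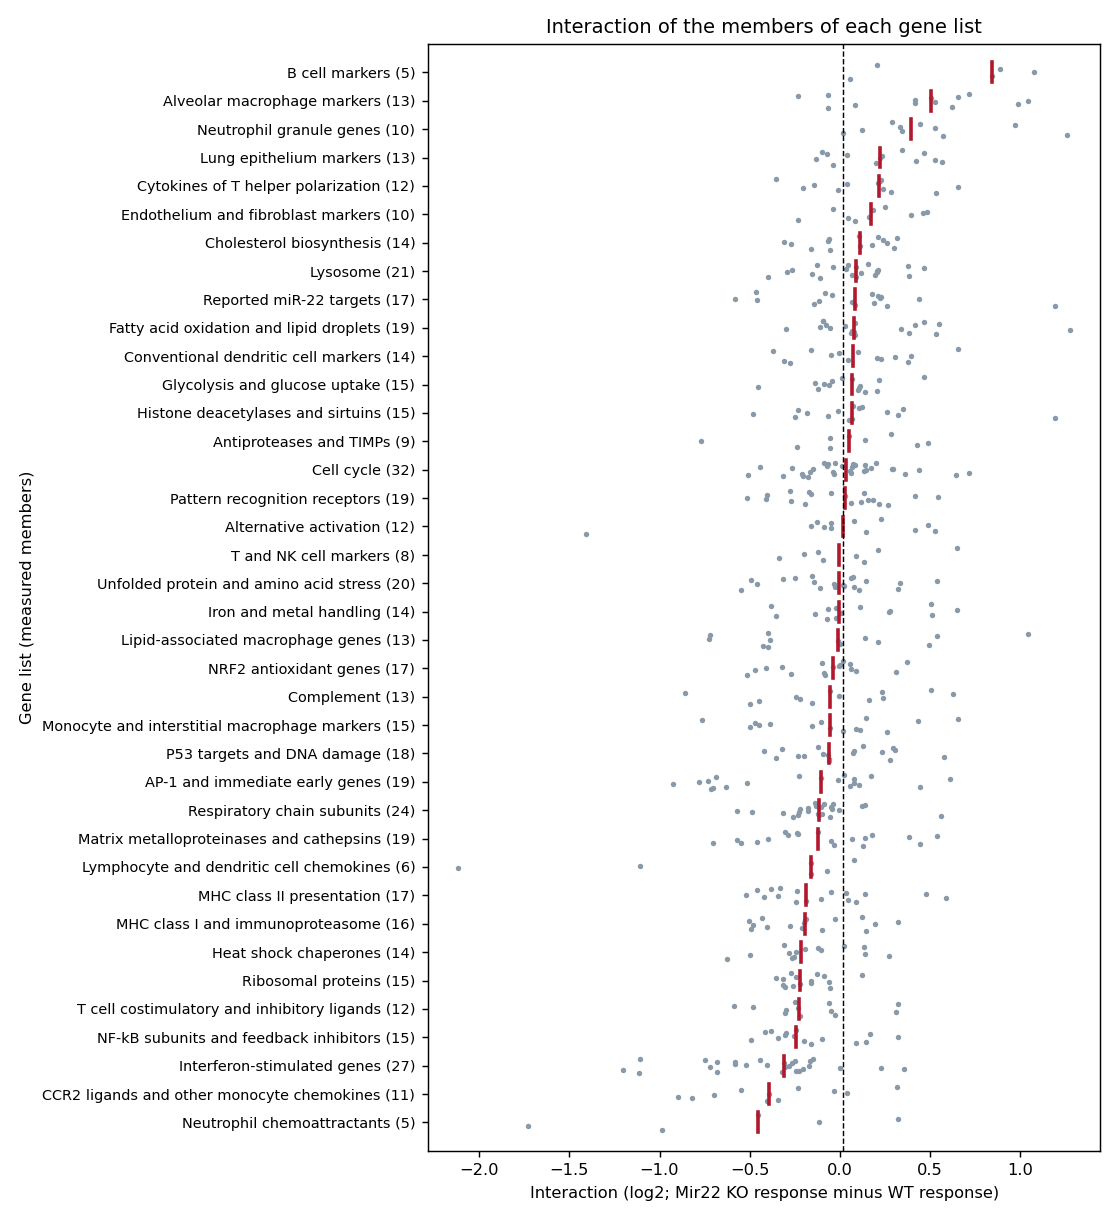
Interaction (Mir22 knockout response minus wild-type response, log2) of the measured members of each gene list with at least 3 measured members (grey dots; number of members in brackets) with the list median (red bar) and the median of all features (dashed line, 0.02). B cell and alveolar macrophage markers lie at the top, with medians of 0.84 and 0.51, and monocyte chemokines (−0.39) and neutrophil chemoattractants (−0.46) at the bottom.

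Housekeeping groups had small interactions of mostly one sign. Ribosomal protein genes were negative in 14 of 15, with a median of −0.22 and 0 at an unadjusted p under 0.05. Their largest member, Rps6, had −0.36 (adjusted p = 0.510). Respiratory chain subunits were negative in 21 of 24 with a median of −0.12; Sdhb, the iron-sulphur subunit of complex II, had −0.49 (adjusted p = 0.335), and Ndufa4 had 0.56 (adjusted p = 0.271). Antigen presentation leaned the same way: 12 of 16 genes of MHC class I and the immunoproteasome (median −0.20, led by Psmb8 at −0.50) and 11 of 17 of class II (median −0.19) were negative, with 0 calls in either.

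Hdac4, the class IIa histone deacetylase reported as a miR-22 target, lay just outside the threshold. Its log2 intensity was 6.40, 6.75 and 6.12 in knockout nCB samples and 5.82, 5.47 and 5.56 in knockout PBS samples, against 5.78, 5.74 and 5.70 in wild-type nCB samples and 6.39, 6.04 and 5.97 in wild-type PBS samples. The exposure groups did not overlap in either genotype, with carbon black higher in knockout and lower in wild type. Knockout samples lay below all wild-type samples under PBS and above them under nCB. Hdac4 rose by 0.81 in knockout cells (adjusted p = 0.00247), and the wild-type response was −0.39 (adjusted p = 0.113). The interaction was 1.19 ± 0.23 (limma adjusted p = 0.0544). It passed without knockout nCB 3 (0.0170) and with array weights (0.0290). It also passed with a trended and robust prior (0.0373) and with features detected on at least 1 array (0.0448). In the other 18 of 22 alternatives it did not pass. Among these were 11 of the 12 models that left out an array (0.0562 to 0.156) and the authors' processed values (0.188). A second annotated Hdac4 probe was detected on fewer than 3 arrays and was not tested.

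Other histone deacetylases and other reported targets had smaller interactions. Of 15 deacetylases and sirtuins measured, 9 were positive with a median of 0.07 and 0 passed. Sirt4 was the next most positive after Hdac4, with 0.35. The most negative value, −0.48 for Hdac8, came from a probe not detected in 2 groups and is 0.05 with those at their bound; 2 other Hdac8 probes gave 0.33 and 0.12. Of 17 reported miR-22 targets, 10 were positive with a median of 0.08 and 0 passed. Purb, a repressor that binds single-stranded DNA, had 0.44 ± 0.17 (adjusted p = 0.403), the deacetylase gene Sirt1 0.26 (adjusted p = 0.718) and Rgs2, a regulator of G protein signalling, −0.58 ± 0.20 (adjusted p = 0.318). Tlcd2, which adjoins Mir22 on chromosome 11, had 0.65 ± 0.20 (adjusted p = 0.265). Its other probes gave 0.51 and 0.24. Their group means were 6.55 to 6.94 in knockout samples and 4.27 to 4.73, near the detection limit, in wild-type samples.

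**Figure D5:**
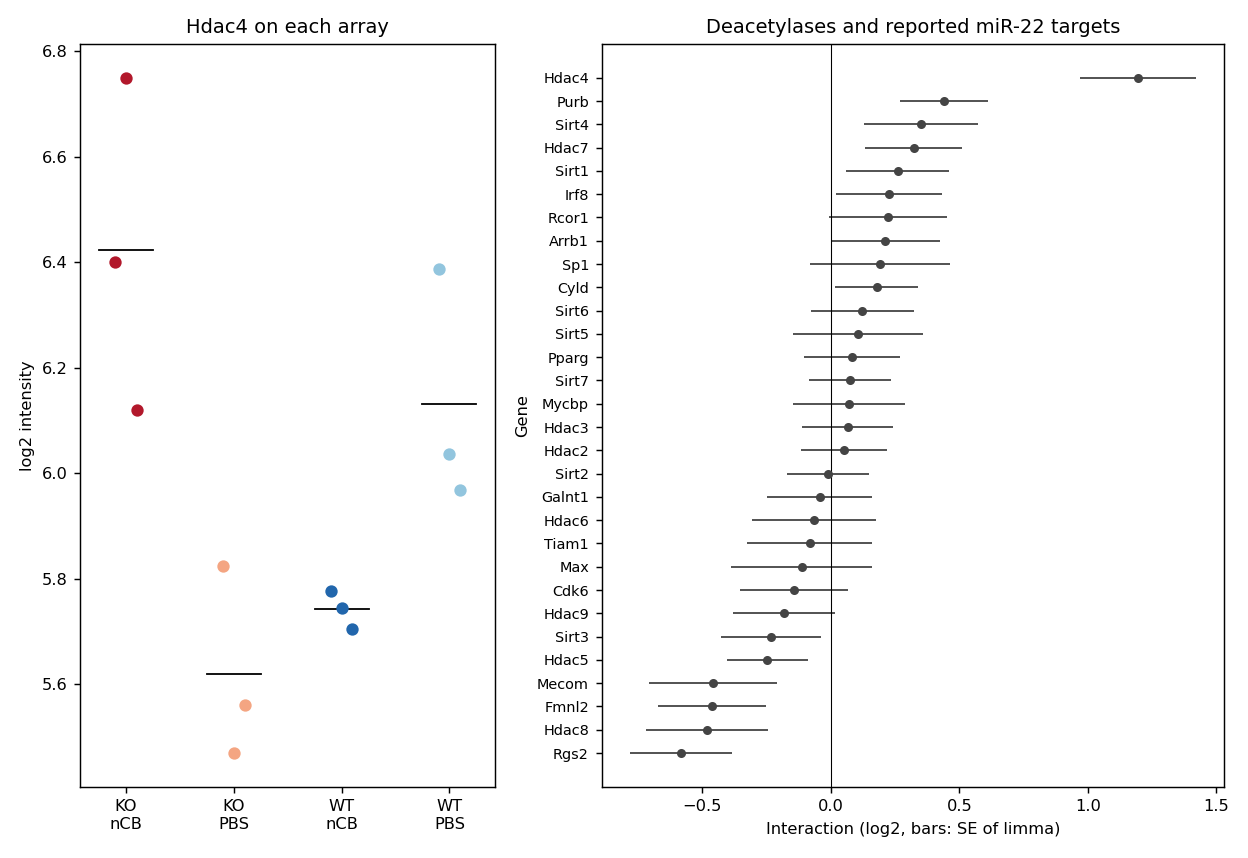
Left, log2 intensity of Hdac4 on each array (dots) with group means (lines), from left to right knockout nCB, knockout PBS, wild-type nCB and wild-type PBS. Right, interaction of the measured deacetylases, sirtuins and reported miR-22 targets with the standard error from limma; Hdac4 (1.19) stands above all others, of which Purb (0.44) is the next.

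Further genes close to the threshold included Myo6, a myosin that moves cargo inward along actin. It had log2 intensities of 7.72, 7.82 and 7.48 in knockout nCB samples and 7.74, 7.61 and 7.57 in knockout PBS samples, against 6.21, 6.84 and 6.82 in wild-type nCB samples and 7.77, 7.83 and 7.70 in wild-type PBS samples. Wild-type nCB samples alone were low (interaction 1.18 ± 0.22, adjusted p = 0.0543). Vsig4, a macrophage receptor for complement C3 fragments, had responses of 0.64 in knockout cells and 1.87 in wild-type cells (interaction −1.23 ± 0.23, adjusted p = 0.0543). The unnamed probe ILMN_2513781, the first outside the threshold, had 2.10 (adjusted p = 0.0543). On the positive side, Tbc1d2, a GTPase-activating protein for Rab7, had 0.73 (adjusted p = 0.0915; −0.19, 0.65 and 0.30 on its other probes) and Dennd3, an exchange factor for Rab12, 0.86 (adjusted p = 0.104). The adhesion molecule Mcam had 0.82 (adjusted p = 0.107). On the negative side, Cyrib, an inhibitor of the GTPase Rac1, had −0.82 (adjusted p = 0.0915) but 0.14 on a second probe, and Cd59a, an inhibitor of the complement membrane attack complex, had −0.86 (adjusted p = 0.120). Pdlim4, a protein of the actin cytoskeleton, rose by 2.12 in knockout cells and 3.06 in wild-type cells (interaction −0.93, adjusted p = 0.150). The last features inside the threshold, Ndrg1 and Gm4951, had an adjusted p of 0.0459.

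Several genes with large responses did not pass the interaction. Fstl1, a secreted glycoprotein, had log2 intensities of 8.91, 9.11 and 8.95 in knockout nCB samples, against 7.13, 8.18 and 6.97 in wild-type nCB samples, with no overlap (interaction 1.40 ± 0.37, adjusted p = 0.212). Pdpn, a mucin-like membrane protein, rose by 4.23 in knockout cells and 3.02 in wild-type cells (interaction 1.22 ± 0.29, adjusted p = 0.170). Mmp12, the macrophage elastase, rose by 3.45 and 4.00 (interaction −0.55, adjusted p = 0.730). The immediate early genes Egr1 (−0.92, adjusted p = 0.448), Fos (−0.72, adjusted p = 0.534) and Jun (−0.63, adjusted p = 0.438) had negative interactions. Il1b (0.21), Mmp9 (0.44), Ccl17 (−0.16) and Hmox1 (−0.52) did not pass, and Il6 and Il23a were detected on 2 and 1 arrays and were not tested.

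The largest responses to carbon black had slightly smaller medians in knockout cells. For the 278 features (2.25%) with an average rise of over 1 log2 unit across both genotypes, the median response was 1.37 in knockout cells and 1.54 in wild-type cells, and the median interaction −0.15. For the 128 features (1.03%) with an average fall of that size, the medians were −1.15 and −1.34, and the median interaction 0.19. These features were chosen by the average response, which uses the same arrays, and the medians are given as a description. With median scaling the median interactions were −0.24 and 0.17.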

How the data were processed

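RNA from CD11c+ lung cells was hybridised to 12 Illumina bead arrays, 3 in each of 4 groups. The deposited table gives a scanned intensity per probe, exported from GenomeStudio per the submitters' processing notes (version not given in the sources used here), beside a detection p-value, which the deposited values give in steps of 1 in 936. The authors' processed log2 values, deposited separately, served as an alternative.

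Intensities were background-corrected from the detection p-values with an offset of 16 and quantile-normalized on the log2 scale (limma 3.58.1, R 4.3.3). The 17346 probes detected on at least 3 arrays gave 12380 features, 9809 with a symbol, using the probe with the highest mean per symbol; 20501 probes carry 1 symbol in the annotation and 11 several. limma fitted a mean per group (8 residual and 6.86 prior degrees of freedom). P-values are two-sided, Benjamini-Hochberg adjusted over all 12380 features, and errors are standard errors. Precision is limited by the number of arrays.

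When tested on simulated data of the interaction (12380 features), 64% of differences of 1 log2 unit and 6% of 0.5 were recovered, and 3.73% of calls were false.

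Named genes are the 10 smallest p per direction among genes detected on every array, up to 8 called per direction among the others, up to 4 smallest p per list, a preset list, and the features beside the threshold. Klk1b26, Klk1b27, Pecam1, Rnase2a, Ear10, Rnase6, Bst2, Irf7, Irf8, Ifih1, Sirt4 and Sirt1 fall outside it and were picked with their values known. The members and the 39 gene lists (730 genes) were chosen with earlier results of these data known.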

Additional observations from a re-analysis of the deposited data

Results flagged for a closer look

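The 16 features that passed the interaction test are the ones to look at again. With the interaction in log2 units, they were Ear6 (−3.31), the unnamed probe ILMN_2635272 (−2.82), Cxcl9 (−2.11), Rnase2b (−1.62), Gpr171 (−1.61), Arg1 (−1.41), Klk1b11 (−1.37), Gpr176 (−1.33), Ndrg1 (−1.25), Cxcl10 (−1.11) and Gm4951 (−1.0) on the negative side. Neat1 (1.28), Cldn23 (1.19), Flt1 (1.06), Sorl1 (0.96) and Ripor2 (0.93) were on the positive side. For Ear6 and Rnase2b the knockout response was not measured, so a difference in response is not shown. For Arg1, Gpr176, Cxcl10 and Cldn23 both PBS groups were undetected.

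Ear6 and ILMN_2635272 passed under all alternatives run for them. Rnase2b, Arg1, Cxcl9 and Gpr176 passed under all but the authors' processed values (adjusted p = 0.0628, 0.192, 0.0794 and 0.182). Groups of 3 arrays were too small for a test of single outlying arrays.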

How the results depend on the processing

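Calls over all 12380 features numbered 16, and 6 with the authors' processed values (2 positive, 4 negative; 3 shared), 27 with array weights (16 shared), 10 with the replicate block (9 shared), and 6 to 34 when 1 array was left out (6 to 14 shared). Among features detected on every array, 9 calls became 5 with median scaling, 14 with an offset of 50, 1 with the authors' values, 5 with every probe on its own, 15 with array weights, 4 with the replicate block, and 2 to 17 when 1 array was left out. The cause was not tested. Equal replicate numbers were not shown to pair arrays: 5 of 18 same-number pairs correlated above 0.1 (−0.297 to 0.223 after removing group means). Median scaling moved the median interaction of all features to −0.03. Signs turned for C1qa with the authors' values (1.15), Ccl17 without knockout nCB 2 (interaction 0.066; −0.459 to 0.066 over the arrays left out), and Il1b without knockout PBS 3 (−0.024) or wild-type PBS 2 (−0.063; −0.063 to 0.50 over the arrays left out), none of them called. Of all other comparisons of a named feature with an alternative, 126 called ones fell short of the threshold and 40 newly passed it. Intensities near the detection limit bound the responses of Ear6, Rnase2b, Arg1, Gpr176, Cldn23, Cxcl10 and Gm4951.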

Other observations

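Several further gene groups had 0 calls, and some of them had interactions of mostly one sign. All 5 measured B cell markers were positive, with a median of 0.84: Blk, a kinase of B cell receptor signalling, had 1.08 (limma adjusted p = 0.334; 0.01 on a second probe), the IgE receptor Fcer2a 0.89 (adjusted p = 0.275) and Cd79b, a chain of the receptor complex, 0.84 (adjusted p = 0.647). Their mean log2 level was 5.07 to 5.73 in knockout nCB samples and 5.33 to 5.46 in knockout PBS samples, against 4.95 to 5.35 in wild-type nCB samples and 5.56 to 6.11 in wild-type PBS samples. The median was 0.50 without knockout nCB 3, 0.54 without wild-type nCB 3, 0.29 with no background correction and 1.29 with the authors' values. Fatty acid oxidation and lipid droplet genes were positive in 13 of 19 (median 0.08), and 5 had an unadjusted p under 0.05, all positive (26.3%, against 5.69% of all features). Acaa1b, a peroxisomal thiolase, led them with 1.28 (adjusted p = 0.174), with responses of −1.96 in knockout cells and −3.24 in wild-type cells; among the others were Angptl4, an inhibitor of lipoprotein lipase, with 0.55 (adjusted p = 0.324) and the lysosomal lipase Lipa with 0.47 (adjusted p = 0.277).

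Ligands that steer T cells were negative in 10 of 12 (median −0.22); Lgals9, which encodes galectin-9, had −0.59 (adjusted p = 0.238), and Cd274, which encodes PD-L1, had 0.31. Heat shock chaperones were negative in 10 of 14 (median −0.22). Among them were Hspa1a at −0.63 (adjusted p = 0.595, with −0.02 on a second probe) and Hsph1 at −0.50 (adjusted p = 0.288). Hspa8 had −0.25 on the probe used (adjusted p = 0.633). Its other probes gave −1.19 (limma unadjusted p = 0.000107) and −0.31. Subunits and inhibitors of NF-kB were negative in 11 of 15 (median −0.24), led by Nfkbia at −0.49 (adjusted p = 0.478). Complement genes were divided, with C1qa at −0.50 (adjusted p = 0.497) and Cd55 at 0.62 (adjusted p = 0.456). Markers of monocytes and interstitial macrophages were split, 7 positive and 8 negative, from Plac8 at 0.66 (adjusted p = 0.573) to the folate receptor Folr2 at −0.77 (adjusted p = 0.138). Cell cycle genes had a median of 0.03 over 32 measured, and Bub1b, of the spindle checkpoint, had 0.72 (adjusted p = 0.238).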
